A study of Mus musculus with 16 samples.

Results

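The endoplasmic reticulum (ER) protein folding and export genes are 36 genes chosen by name for their part in folding, checking and exporting proteins, out of the 24421 genes counted in both matrices of the series. They are 6 ER chaperones, 4 disulfide isomerases, 2 lectin chaperones, 3 J-domain co-chaperones, 3 stress sensors, 3 stress transcription factors, 4 genes of ER-associated degradation, 3 translocon subunits, 3 signal peptidase subunits, 4 subunits of the translocon-associated protein (TRAP) complex and 1 subunit of the oligosaccharyltransferase. All 36 had a row in both matrices. Of these, 34 had at least 20 unique molecular identifiers (UMIs, each standing for 1 captured transcript) over all cells, whereas Sec61g had 15 and the stress sensor Ern1 had 7.

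Single cells were captured from the intestinal crypts of wild-type (WT) and ROBO mice at postnatal day 16. ROBO mice carry a Crainbow transgene in the Rosa26 locus, driven by the CAG promoter, that encodes RSPO3 and the fusions PTPRKe1:RSPO3e2-5 and PTPRKe1-7:RSPO3e2-5, each with its own fluorescent protein, and Villin-Cre recombines it in the intestinal epithelium. WT mice were littermate controls, and the mice were outbred. A recombined ROBO cell can carry any 1 of the RSPO3 forms, and the matrices do not separate these forms from each other or from cells without recombination. Each genotype was represented by 8 samples that were pooled in a single matrix, with 1348 WT cells (2682127 UMIs) and 1249 ROBO cells (2428435 UMIs). Cell names give no sample, so each genotype counts as 1 sample, no spread between mice could be had and no test between genotypes was possible. Intervals below are 95% intervals that cover counting error alone.

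Most proteins that a cell secretes enter the ER through the translocon, lose their signal peptide, receive sugars and are folded by chaperones and disulfide isomerases, and misfolded chains are drawn back out and degraded. When unfolded protein builds up, sensors in the ER membrane switch on the unfolded protein response, whose transcription factors raise many of the same chaperones. In the gut, goblet cells make mucus and Paneth cells make antimicrobial proteins, and both lean heavily on this machinery, while absorptive enterocytes place digestive enzymes and transporters on their brush border and export fat in lipoproteins.

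The ER stress response element (ERSE) is the promoter sequence through which the unfolded protein response acts on classical ER chaperone genes. It was searched for in the promoters of the listed genes. The list was chosen to hold such chaperones, so matches among them describe the genes and are not independent support for the list. RefSeq promoter windows on GRCm38.p6, from 250 bases before to 50 bases after the gene start, were held for 28 of the 36 genes and were searched on both strands. ERSE (CCAAT, any 9 bases, then CCACG) was found in the windows of 8 of the 28 genes (28.6%), compared with 37 of 27025 genes of the annotation (0.137%). The related ERSE-II (ATTGG, any 1 base, then CCACG) was found in 2 of the 28 (7.14%), compared with 12 of all genes (0.0444%). The 10 stretches are printed here because they are the sequence that members of the list share, written 5′ to 3′ along the gene with the ERSE or ERSE-II bases in capitals. Where CGTGG stands before ATTGG, the element lies on the strand opposite to the gene.
Hspa5, chr2:34772010-34772058, plus strand: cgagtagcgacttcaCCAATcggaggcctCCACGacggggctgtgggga
Hsp90b1, chr10:86705518-86705671, minus strand: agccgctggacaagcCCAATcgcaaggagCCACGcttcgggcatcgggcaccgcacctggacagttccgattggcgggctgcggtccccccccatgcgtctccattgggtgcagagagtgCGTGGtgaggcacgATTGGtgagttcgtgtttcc
Creld2, chr15:88819505-88819553, plus strand: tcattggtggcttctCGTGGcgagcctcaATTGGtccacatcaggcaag
Pdia6, chr12:17266476-17266524, plus strand: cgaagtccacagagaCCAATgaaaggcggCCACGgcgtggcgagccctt
Calr, chr8:84847060-84847108, minus strand: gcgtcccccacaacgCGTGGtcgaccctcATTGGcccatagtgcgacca
Canx, chr11:50325785-50325833, minus strand: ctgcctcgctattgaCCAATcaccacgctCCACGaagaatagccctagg
Dnajc3, chr14:118937812-118937860, plus strand: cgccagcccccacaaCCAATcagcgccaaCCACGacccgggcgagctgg
Syvn1, chr19:6046517-6046565, plus strand: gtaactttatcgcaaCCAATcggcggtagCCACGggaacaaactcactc
Dnajb11, chr16:22857837-22857877, plus strand: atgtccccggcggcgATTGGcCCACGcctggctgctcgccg
Herpud1, chr8:94386362-94386402, plus strand: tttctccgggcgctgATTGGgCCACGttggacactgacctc
The Hsp90b1 stretch holds 2 ERSE copies, 1 on each strand. The CCAAT and CCACG letters of ERSE taken singly were common: 22 of the 28 genes had CCAAT (78.6%, against 41.1% of all genes) and 22 had CCACG (78.6%, against 35.5%), counts that include the copies inside ERSE. TGACGTGG, the core of the unfolded protein response element, was in the window of none of the 28 genes (0.714% of all genes), and neither was the amino acid response element TGATGCAAT (0.222% of all genes). A match describes these windows and is not shown to be bound.

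Cells were clustered without the 36 genes and named from marker lists. The secretory-like cluster had 126 cells (62 WT, 64 ROBO) and was led by Zg16, Fcgbp, Mptx1, Clca1, Agr2 and Muc2, which are goblet and Paneth products. Goblet markers made up 7.49% of its UMIs, compared with 0.0557% in crypt-like and 0.0481% in enterocyte-like cells. By the larger of their summed goblet and Paneth marker UMIs, 79 secretory-like cells fell on the goblet side and 43 on the Paneth side, with 4 ties. The 1246 crypt-like cells (667 WT, 579 ROBO) were 723 stem-like and 523 transiently amplifying-like cells, and the 972 enterocyte-like cells (484 WT, 488 ROBO) were split by their markers into bottom, middle and top of the villus. One cluster of the middle cells (111 WT, 74 ROBO) was led by Cxcl10, Atf3 and Fosb. It had 6 middle enterocyte markers raised, but 0 of them among its top 10 genes. Immune markers stood at 0.61 UMIs per 10000 in secretory-like cells with 12 of 17 at 0. A further 30 enteroendocrine-like, 45 immune-like and 178 unnamed cells complete the set. The transcripts of the transgene were not analysed here, so the genotypes rest on the labels.

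The ER genes were, in most cases, higher in secretory-like cells than in enterocyte-like cells. Levels are UMIs per 10000 UMIs of a cell group. Among the 34 genes with at least 20 UMIs over both groups, 29 were higher in secretory-like cells, 13 by at least 2-fold, and 1 was at least 2-fold lower; 13.5% of the 8668 genes measured this way were at least 2-fold higher and 18.2% at least 2-fold lower. The median log2 ratio was 0.90 for the 34 genes and 0.01 for all genes. Without the enterocyte-like cluster led by Cxcl10, Atf3 and Fosb, the median of the 34 genes was 0.88 and 14 were at least 2-fold higher. The interval lay above 0 for 24 of the 34 genes and below 0 for 2. These interval counts also depend on how many UMIs a gene had, and the share over all genes is not given for them. Together the 36 genes held 1.32% of the UMIs of secretory-like cells, 0.762% of those of crypt-like cells and 0.964% of those of enterocyte-like cells. Their share was 1.49% on the goblet side and 0.889% on the Paneth side. The Paneth side was thus below enterocyte-like cells in this sum.

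**Figure D1:**
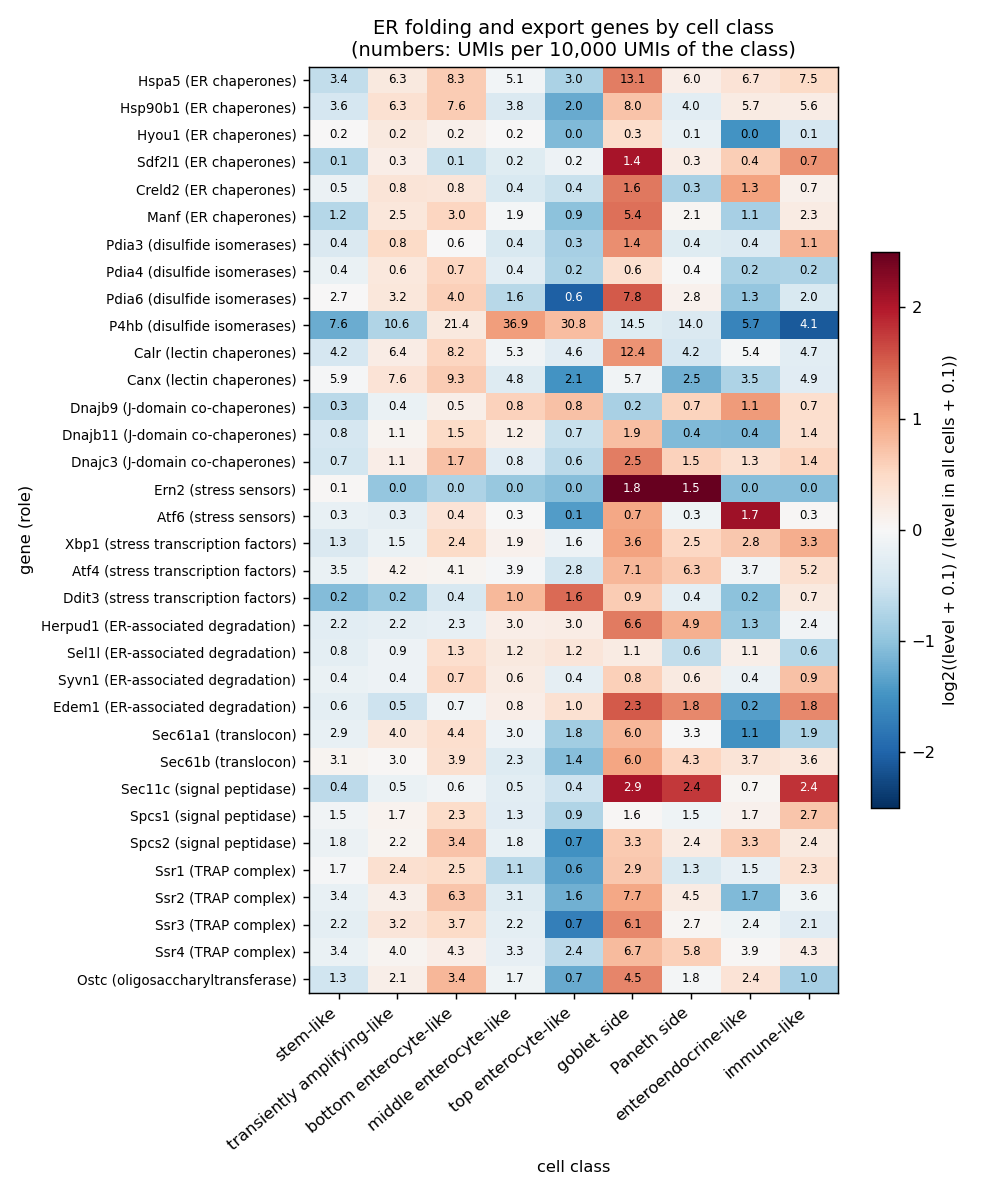
Heat map of 34 ER genes (rows, in order of role) over 9 cell classes (columns); printed numbers are levels in UMIs per 10000 UMIs and colour is the log2 ratio of the level to that of all cells, with 0.1 added to both. The goblet side is the darkest column for most rows, whereas P4hb stands out in the enterocyte-like columns (36.9 in the middle).

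The stress sensor Ern2 had the largest difference. Ern2 (chr7:122169893-122186207, minus strand, GRCm38) encodes the IRE1 beta kinase and ribonuclease, the epithelial relative of the widely expressed IRE1 alpha encoded by Ern1. In secretory-like cells, Ern2 had 26 UMIs in WT (2.09 per 10000) and 15 in ROBO (1.23), and in enterocyte-like cells it had 1 UMI in either genotype (0.0108 in WT and 0.0105 in ROBO). The log2 ratio over enterocyte-like cells was 7.29 (5.35 to 10.39), and over crypt-like cells, which held 12 Ern2 UMIs, it was 4.97 (4.02 to 6.04). When cells were thinned to 912 UMIs each, 12 of 90 secretory-like cells had an Ern2 UMI (13.3%, Clopper-Pearson interval 7.08% to 22.1%; 25.4% of all 126 before thinning), compared with 5 of 862 crypt-like cells (0.58%), and with 0 of 762 enterocyte-like cells. That count of 0 allows at most 0.394% of such cells to have a UMI at this depth, and it sets no limit on cells that express the gene, since the 2 Ern2 UMIs of all enterocyte-like cells were not among those kept after thinning. Most Ern2 UMIs were therefore in secretory-like cells in both genotypes, and of the 12 in crypt-like cells 11 were in stem-like cells. Ern1 had 0 UMIs in secretory-like cells, 4 in crypt-like and 3 in enterocyte-like cells, too few to compare. Atf6, the sensor that is cleaved to release a transcription factor, had 15 UMIs in secretory-like cells and a log2 ratio of 0.98 (0.06 to 1.82) over enterocyte-like cells.

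Among the ER chaperones, all 6 were higher in secretory-like cells than in enterocyte-like cells and 4 were at least 2-fold higher. Hspa5, which encodes BiP, the central ER chaperone and a regulator of the stress sensors, stood at 11.7 per 10000 in WT and 10.3 in ROBO secretory-like cells. In enterocyte-like cells Hspa5 stood at 5.13 in WT and 5.78 in ROBO, and the log2 ratio was 1.02 (0.82 to 1.21). Both secretory-like values of Hspa5 were above both enterocyte-like values. Sdf2l1, a partner of BiP, had the largest ratio of the chaperones at 2.55 (1.75 to 3.33), from 26 and 34 UMIs. Sdf2l1 was at 1.61 per 10000 in WT but at 0.492 in ROBO secretory-like cells, against 0.172 and 0.188 in enterocyte-like cells. Creld2 had a log2 ratio of 1.32 (0.68 to 1.92) and Manf, a secreted ER stress-induced factor, one of 1.15 (0.83 to 1.46). Hsp90b1, the ER form of Hsp90, was below 2-fold at 0.68 (0.43 to 0.92), and the interval of Hyou1 with 6 secretory-like UMIs held 0 (-0.99 to 1.85).

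The disulfide isomerases, which form and shuffle disulfide bonds, went in opposite directions. Pdia6 stood at 6.66 per 10000 in WT and 6.07 in ROBO secretory-like cells, and at 2.01 and 1.95 in enterocyte-like cells, for a log2 ratio of 1.69 (1.41 to 1.96). Pdia3 had a log2 ratio of 1.38 (0.71 to 2.02) and Pdia4 one of 0.46 (-0.48 to 1.29). P4hb, on the other hand, was lower in secretory-like cells in both genotypes. P4hb (chr11:120560298-120573253, minus strand) encodes protein disulfide isomerase, which is also the small subunit of the microsomal triglyceride transfer protein that loads fat onto lipoproteins. P4hb stood at 15.4 per 10000 in WT and 12.9 in ROBO secretory-like cells, but at 31.8 and 33.0 in enterocyte-like cells, for a log2 ratio of -1.19 (-1.35 to -1.04). Against crypt-like cells, at 9.90 in WT and 8.58 in ROBO, P4hb was higher in secretory-like cells (0.61, 0.44 to 0.77).

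The lectin chaperones, which hold newly glycosylated proteins, also differed from each other. Calr, encoding the soluble calreticulin, had a log2 ratio of 0.78 (0.58 to 0.98) over enterocyte-like cells. Canx, encoding its membrane-bound counterpart calnexin, had one of -0.15 (-0.43 to 0.13) over enterocyte-like cells and -0.51 (-0.79 to -0.24) over crypt-like cells. Canx was at 4.5 per 10000 in WT and 5.17 in ROBO secretory-like cells, below both crypt-like values of 6.38 and 7.52. Of the J-domain co-chaperones, which drive the ATP cycle of BiP, Dnajc3 was at least 2-fold higher than in enterocyte-like cells (1.21, 0.75 to 1.66). Dnajb11 had a log2 ratio of 0.30 (-0.25 to 0.81), and Dnajb9, with 9 secretory-like UMIs, had one of -0.98 (-2.14 to -0.02). Dnajc3 was thus the J-domain gene whose interval lay above 0.

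No stress transcription factor was past 2-fold of the enterocyte-like level. Xbp1, whose transcript is spliced by IRE1, had a log2 ratio of 0.73 (0.37 to 1.09), and Atf4, the factor of the integrated stress response, one of 0.86 (0.61 to 1.11). Ddit3, encoding the pro-apoptotic factor CHOP, had one of -0.37 (-1.14 to 0.31) against enterocyte-like cells but 1.78 (0.93 to 2.56) against crypt-like cells, where it stood at 0.225 per 10000. UMIs counted at the 3′ end do not tell spliced Xbp1 from unspliced Xbp1. Of the ER-associated degradation genes, Edem1, a mannosidase-like protein that picks out misfolded glycoproteins, had a log2 ratio of 1.38 (0.89 to 1.84) over enterocyte-like cells and Herpud1 one of 1.12 (0.84 to 1.38). The subunits of the degradation ligase itself, Syvn1 (0.46, -0.30 to 1.16) and Sel1l (-0.31, -0.99 to 0.30), had intervals that held 0.

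The gene of the export route with the largest ratio was Sec11c, a catalytic subunit of signal peptidase. Sec11c stood at 2.81 per 10000 in WT and 2.79 in ROBO secretory-like cells, and at 0.431 and 0.575 in enterocyte-like cells, for a log2 ratio of 2.47 (2.00 to 2.94). Immune-like cells, at 2.45 per 10000, had a Sec11c level near that of secretory-like cells. After thinning, 21 of 90 secretory-like cells had a Sec11c UMI (23.3%), compared with 3.83% of crypt-like, 3.67% of enterocyte-like and 19.4% of immune-like cells. The other signal peptidase subunits were closer to the enterocyte-like level, with Spcs2 at 0.60 (0.22 to 0.96) and Spcs1 at 0.12 (-0.41 to 0.60). Of the Sec61 channel, Sec61b was at 1.11 (0.82 to 1.39) and Sec61a1, the pore, at 0.72 (0.44 to 1.00), while Sec61g had 0 secretory-like UMIs and 15 UMIs in all cells. All 4 TRAP subunits were higher, by a log2 ratio of 0.89 for Ssr1, 0.91 for Ssr2 and Ssr4 and 1.18 for Ssr3, with intervals above 0. Ostc of the oligosaccharyltransferase had a log2 ratio of 0.95 (0.61 to 1.29).

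**Figure D2:**
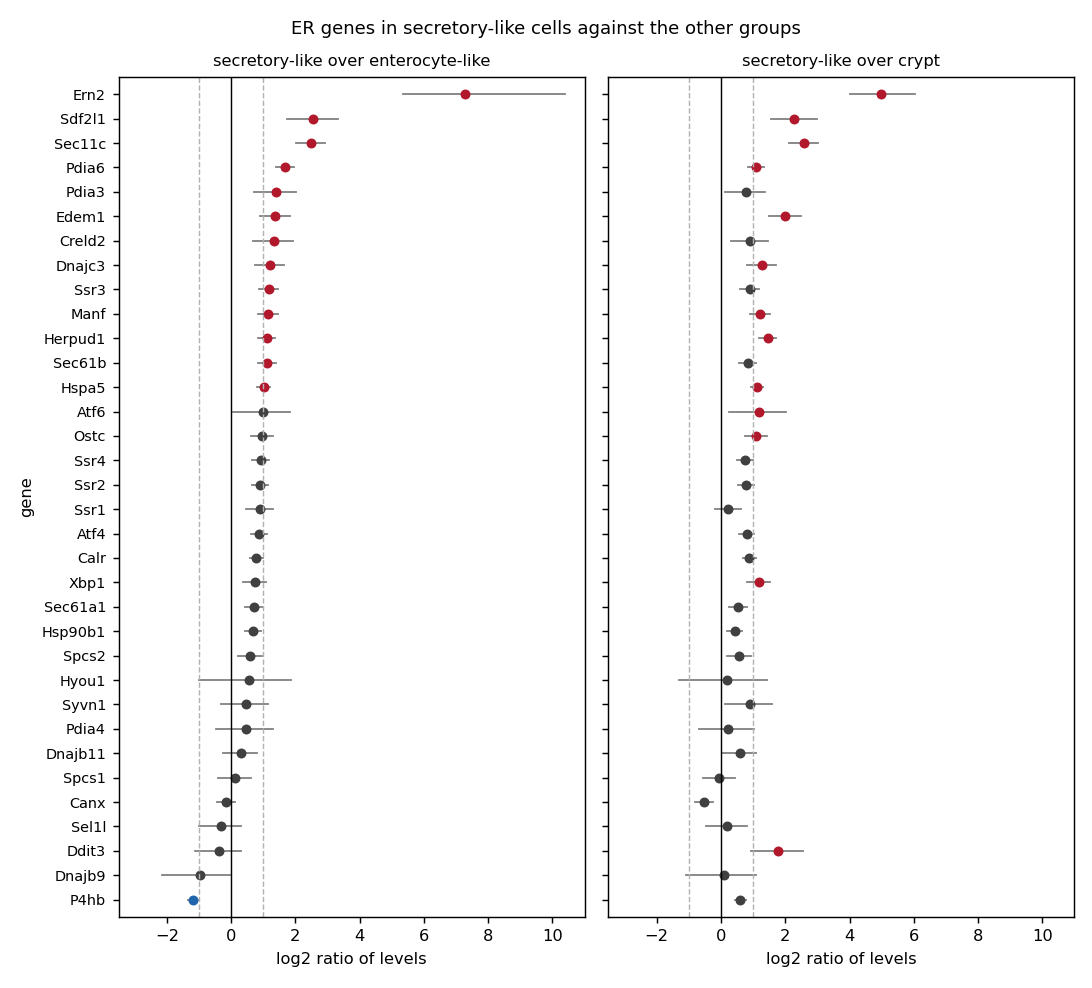
Log2 ratio of secretory-like cells over enterocyte-like and over crypt-like cells for 34 ER genes; points are ratios, bars are 95% counting intervals and dashed lines mark 2-fold, with red points at least 2-fold higher and blue points at least 2-fold lower. Ern2, Sec11c and Sdf2l1 lie farthest to the right, and P4hb is the only blue point (-1.19 over enterocyte-like cells).

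Against crypt-like cells, 32 of the 34 measured ER genes were higher in secretory-like cells, 13 at least 2-fold higher and 0 at least 2-fold lower, where 6.44% of 9490 genes were at least 2-fold higher and 17.0% at least 2-fold lower. The median log2 ratio was 0.86 for the ER genes and -0.29 for all genes. These ratios use the same secretory-like cells as those against enterocyte-like cells and are given beside them. After Ern2, the largest were Sec11c at 2.58 (2.12 to 3.03), Sdf2l1 at 2.29 (1.54 to 3.00) and Edem1 at 2.01 (1.51 to 2.49). Ddit3 at 1.78, Herpud1 at 1.46, Dnajc3 at 1.27, Manf at 1.2, Atf6 at 1.18, Xbp1 at 1.17 and Hspa5 at 1.13 were next, with intervals above 0. Between crypt-like and enterocyte-like cells, by contrast, 17 of 33 ER genes were higher in crypt-like cells, 0 at least 2-fold (22.7% of 10129 genes were) and 3 at least 2-fold lower (10.4% were). These 3 were P4hb at -1.80, Dnajb9 at -1.07 and Ddit3 at -2.15. The median of this last comparison was 0.03, compared with 0.34 for all genes, and became -0.31 when centred on all genes and -0.32 at a clustering resolution of 0.4.

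The differences were seen in both genotypes for part of the genes. Within WT cells alone, 16 of 33 ER genes were at least 2-fold higher in secretory-like than in enterocyte-like cells, where 12.2% of 6968 genes were. Within ROBO cells alone, 9 of 33 were, where 13.3% of 7044 genes were. The 6 genes past 2-fold in both, which are 6 of the 16 and 6 of the 9, were Dnajc3, Manf, Pdia6, Sdf2l1, Sec11c and Ssr3. They are 6 of the 32 genes measured in both genotypes (18.8%, compared with 5.79% of the 6594 genes so measured), and 26 of the 32 were higher in both (81.3%, compared with 31.7% of all genes). Against crypt-like cells, 14 WT and 13 ROBO ratios were past 2-fold (7.0% and 6.49% of all genes), of which 12 were shared: Ddit3, Dnajc3, Edem1, Ern2, Herpud1, Hspa5, Manf, Ostc, Pdia6, Sdf2l1, Sec11c and Xbp1. These are 12 of 34 genes measured in both (35.3%, compared with 3.04% of 7657 genes), and 30 of the 34 were higher in both (88.2%, compared with 17.8%). Calr was an example of a gene past 2-fold over enterocyte-like cells in WT (1.02) and not in ROBO (0.39).

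Within the secretory-like cells, the ER genes were higher on the goblet side. All 28 genes with at least 20 UMIs over both sides were higher there, 12 at least 2-fold, where 22.5% of 2399 genes were at least 2-fold higher. The interval lay above 0 for 14 of the 28, a count given without the share over all genes. The median log2 ratio was 0.89, compared with 0.30 for all genes, so genes in general also tended to be higher on this side. Calr stood at 12.4 per 10000 on the goblet side and at 4.18 on the Paneth side, a log2 ratio of 1.57 (1.00 to 2.19). Pdia6 stood at 7.82 and 2.84, a ratio of 1.46 (0.77 to 2.24), and Hspa5 at 13.1 and 5.97, a ratio of 1.13 (0.64 to 1.66). Creld2 (29 and 2 UMIs), Sdf2l1 (24 and 2) and Dnajb11 (33 and 3) had the largest ratios, at 2.46, 2.19 and 2.06, on few Paneth-side counts. Goblet-side cells had a median of 1893 UMIs and Paneth-side cells one of 1341, and the part of depth in these ratios was not tested. Paneth-side cells also held 1358 goblet marker UMIs beside 6503 Paneth marker UMIs.

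Other ER genes had intervals that held 0. Ern2 was at 1.76 per 10000 on the goblet side and 1.49 on the Paneth side, a log2 ratio of 0.24 (-0.83 to 1.43). P4hb was at 14.5 and 14.0 (0.04, -0.30 to 0.40), and Atf4 had a ratio of 0.19 (-0.33 to 0.73). Sec11c (0.30, -0.53 to 1.21), Edem1 (0.34, -0.62 to 1.41) and Herpud1 (0.43, -0.14 to 1.03) were also in this set. These intervals still allow differences past 2-fold for Ern2, Sec11c, Edem1 and Herpud1. Between the 61 goblet-side and 18 Paneth-side cells with at least 90% of their marker UMIs on one side, the log2 ratio was 2.15 for Ern2 and 2.25 for Herpud1. Intervals for these 2 ratios are not given. The counting interval of a typical ER gene had a half-width of 1.55 in this setting, so both values are uncertain. At least 2-fold higher on the goblet side were 14 of 25 genes within WT (26.1% of all genes) and 6 of 22 within ROBO (20.5%), among which Calr, Manf, Ostc, Pdia6 and Ssr3 were past 2-fold in both. They are 5 of 21 genes measured in both (23.8%, compared with 8.16% of 858 genes), and 19 of the 21 were higher on that side in both (90.5%, compared with 46.5%). The median ratio was 1.2 in WT and 0.45 in ROBO.

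**Figure D3:**
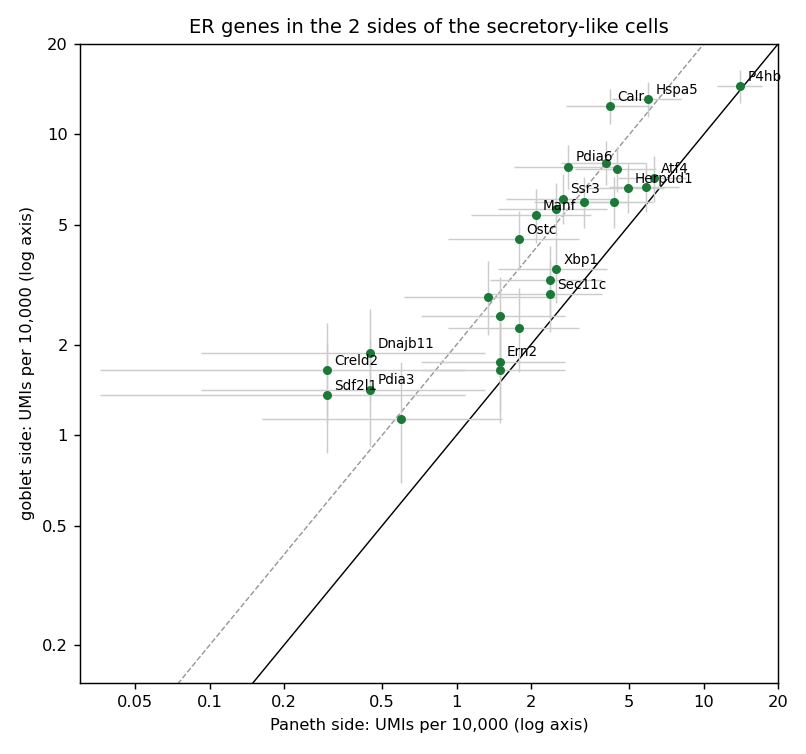
Level on the goblet side against level on the Paneth side of the secretory-like cluster for 28 ER genes, in UMIs per 10000 on log axes; bars are 95% counting intervals, the solid line is equality and the dashed line is 2-fold higher on the goblet side. All 28 points lie above equality, with Calr, Pdia6 and Hspa5 beyond the 2-fold line and P4hb, Ern2 and Atf4 near equality.

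Over 9 cell classes, the goblet side held the highest level of 24 of the 34 ER genes with at least 20 UMIs (70.6%), where it did so for 9.6% of the 10474 genes with that many. For 5 of these (14.7% of the 34), Hspa5, Manf, Pdia6, Calr and Ssr3, the interval of the goblet side stood apart from that of the next class, which held for 0.621% of all genes. Bottom enterocyte-like cells held the highest level of 5 genes (Canx, Pdia4, Sel1l, Spcs2 and, on 2 UMIs, Sec61g), of which Canx at 9.31 per 10000 stood apart from the next class. Ddit3 (1.63) and, on 1 UMI, Ern1 were highest in top enterocyte-like cells, P4hb in middle enterocyte-like cells (36.9, apart from the next class), Atf6 (1.74, 8 UMIs) and Dnajb9 (1.09, 5 UMIs) in enteroendocrine-like cells, and Syvn1 (0.890) and Spcs1 (2.67) in immune-like cells.

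Enterocyte-like cells varied along the villus. From bottom to top, 26 of 31 measured ER genes were lower, 19 at least 2-fold, where 36.8% of 5821 genes were at least 2-fold lower, and the median log2 ratio was -1.31 compared with -0.57 for all genes. Pdia6 had a log2 ratio of -2.83 (-3.62 to -2.13), Spcs2 one of -2.37 and Ssr3 one of -2.34. Canx, from 400 UMIs in bottom and 66 in top cells, had one of -2.17 (-2.57 to -1.79), and Hspa5 one of -1.45 (-1.79 to -1.13). By role, 4 of 4 measured chaperones were at least 2-fold lower at the top, as were 2 of 3 signal peptidase and 3 of 4 TRAP subunits, but 0 of 4 genes of ER-associated degradation were, and 2 of those 4 were higher. Against that direction, P4hb was higher at the top (0.53, 0.39 to 0.66) and Ddit3 was the one gene at least 2-fold higher (2.05, 1.23 to 2.93), where 13.2% of all genes were. Bottom cells had more UMIs per cell, with a median of 2762 against 1213 in top cells, and the part of depth in these ratios was not tested. From stem-like to transiently amplifying-like cells, 30 of 33 ER genes were higher, 2 of them at least 2-fold (4.8% of 9270 genes were), with a median log2 ratio of 0.44 compared with 0.01.

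Cell by cell, the summed level of the 36 genes overlapped widely between classes. Its median was 107.6 UMIs per 10000 in secretory-like cells (111.8 in WT, 98.6 in ROBO), 66.9 in crypt-like cells (69.5 and 64.6) and 90.3 in enterocyte-like cells (89.5 and 90.7). The goblet side had a median of 128.4 (128.7 in WT, 127.1 in ROBO) and the Paneth side one of 73.7 (71.8 and 82.3). P4hb is the gene that lifted the enterocyte-like sum, with 32.4 of its UMIs per 10000. The medians of WT and ROBO cells lay within the quartiles of each other in every one of these classes.

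**Figure D4:**
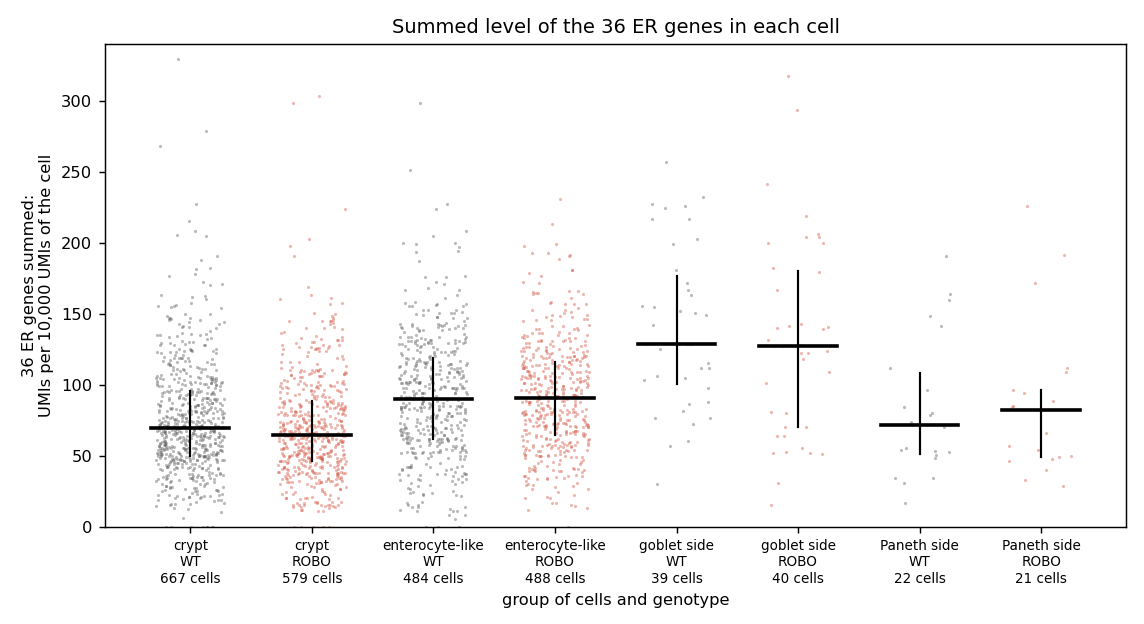
Summed level of the 36 ER genes in single cells, in UMIs per 10000 UMIs of the cell, by cell class and genotype; each point is a cell, the black bar the median and the vertical line the quartiles. The goblet side has the highest medians (128.7 in WT, 127.1 in ROBO) and the WT and ROBO clouds overlap in each class.

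Between genotypes, Calr had the most UMIs of the ER genes past 1.5-fold. In secretory-like cells, 29 ER genes had at least 20 UMIs, of which 2 were at least 1.5-fold higher in ROBO and 7 at least 1.5-fold lower, where 16.0% of 2445 genes were higher and 14.9% lower by that much. The median log2 ratio of ROBO over WT was -0.18, compared with 0.03 for all genes, but it was -0.0064 without the 3 largest cells of each genotype and 0.016 where all cells weighed equally. In crypt-like cells, 1 of 33 was higher and 3 were lower by at least 1.5-fold (7.94% and 6.53% of 9270 genes), with a median of 0.00. The higher one was Hyou1, a chaperone of the Hsp70 family, at 0.64 with an interval that held 0 (-0.23 to 1.54). In enterocyte-like cells, 0 of 33 were past 1.5-fold in either direction (15.4% of 8247 genes were), with a median of 0.05. The share of ER genes past 1.5-fold was therefore near that of all genes in secretory-like cells and below it in enterocyte-like cells.

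Calr (chr8:84841850-84846934, minus strand) was lower in ROBO in all 3 cell groups. In secretory-like cells it stood at 13.3 per 10000 in WT (166 UMIs) and 6.72 in ROBO (82 UMIs), a log2 ratio of -0.99 (-1.39 to -0.60). In crypt-like cells it stood at 6.45 (802 UMIs) and 4.29 (439 UMIs), a ratio of -0.59 (-0.76 to -0.42), and in enterocyte-like cells at 6.59 (612 UMIs) and 5.13 (491 UMIs), a ratio of -0.36 (-0.54 to -0.19). By finer class, Calr was lower in ROBO among stem-like (3.24 against 5.10), transiently amplifying-like (5.17 against 7.39), bottom (6.82 against 9.57) and middle enterocyte-like cells (4.56 against 6.04), on the goblet side (8.38 against 16.4) and on the Paneth side (2.47 against 5.77), but not in top enterocyte-like cells (4.95 against 4.18). A single WT secretory-like cell held 26 of the 166 Calr UMIs (15.7%). Without the 3 largest secretory-like cells of each genotype the Calr ratio was -0.67, which is still past 1.5-fold.

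Pdia3, the disulfide isomerase that works with calreticulin, was lower in ROBO crypt-like cells, at 0.430 against 0.860 per 10000 (44 and 107 UMIs), a log2 ratio of -1.0 (-1.54 to -0.48). In secretory-like cells Pdia3 had 8 ROBO and 20 WT UMIs (-1.29, -2.68 to -0.05), 1 WT cell holding 6 of the 20, and in enterocyte-like cells its interval held 0 (-0.40, -1.07 to 0.26). With each cell given the same weight, the secretory-like ratio of Pdia3 was -0.18. Over all cells, Pdia3 was at -0.76 (-1.11 to -0.40) and Calr at -0.47 (-0.58 to -0.36), while Canx of the same folding cycle was higher in ROBO crypt-like cells (0.24, 0.09 to 0.38) and had intervals that held 0 in the other groups.

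Except for Sec61a1, other ER genes were apart between genotypes in 1 cell group or by less than 1.5-fold. Sec61a1 was apart in all 3 groups and past 1.5-fold in secretory-like cells. Creld2 was lower in ROBO crypt-like cells (52 against 100 UMIs, -0.66, -1.18 to -0.17) and at 0.29 (-0.32 to 0.91) in enterocyte-like cells. Sdf2l1 was lower in ROBO secretory-like cells with 6 against 20 UMIs (-1.71, -3.31 to -0.34), and its intervals held 0 in crypt-like and enterocyte-like cells. Sec61a1 was lower in ROBO in all 3 groups, at -0.64 (-1.19 to -0.11), -0.23 (-0.44 to -0.02) and -0.39 (-0.63 to -0.15) in secretory-, crypt- and enterocyte-like cells. The secretory-like ratio of Sec61a1 rested on few cells, since 1 WT cell held 17 of 78 UMIs (21.8%), the ratio was -0.21 without the 3 largest cells of each genotype and it turned to 0.11 with each cell given the same weight. Hsp90b1 was higher in ROBO crypt-like cells (0.37, 0.20 to 0.53), though at 0.071 where all cells weighed equally and at -0.40 at a clustering resolution of 0.4. It was at 0.21 (0.01 to 0.41) in enterocyte-like and -0.19 (-0.64 to 0.26) in secretory-like cells. The remaining secretory-like ratios past 1.5-fold, for Dnajb11, Ern2, Creld2, Syvn1 and Ssr1, had intervals that held 0. For Ern2, 17 of 62 WT and 15 of 64 ROBO secretory-like cells had a UMI, and the ratio of its level was -0.76 (-1.79 to 0.21).

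**Figure D5:**
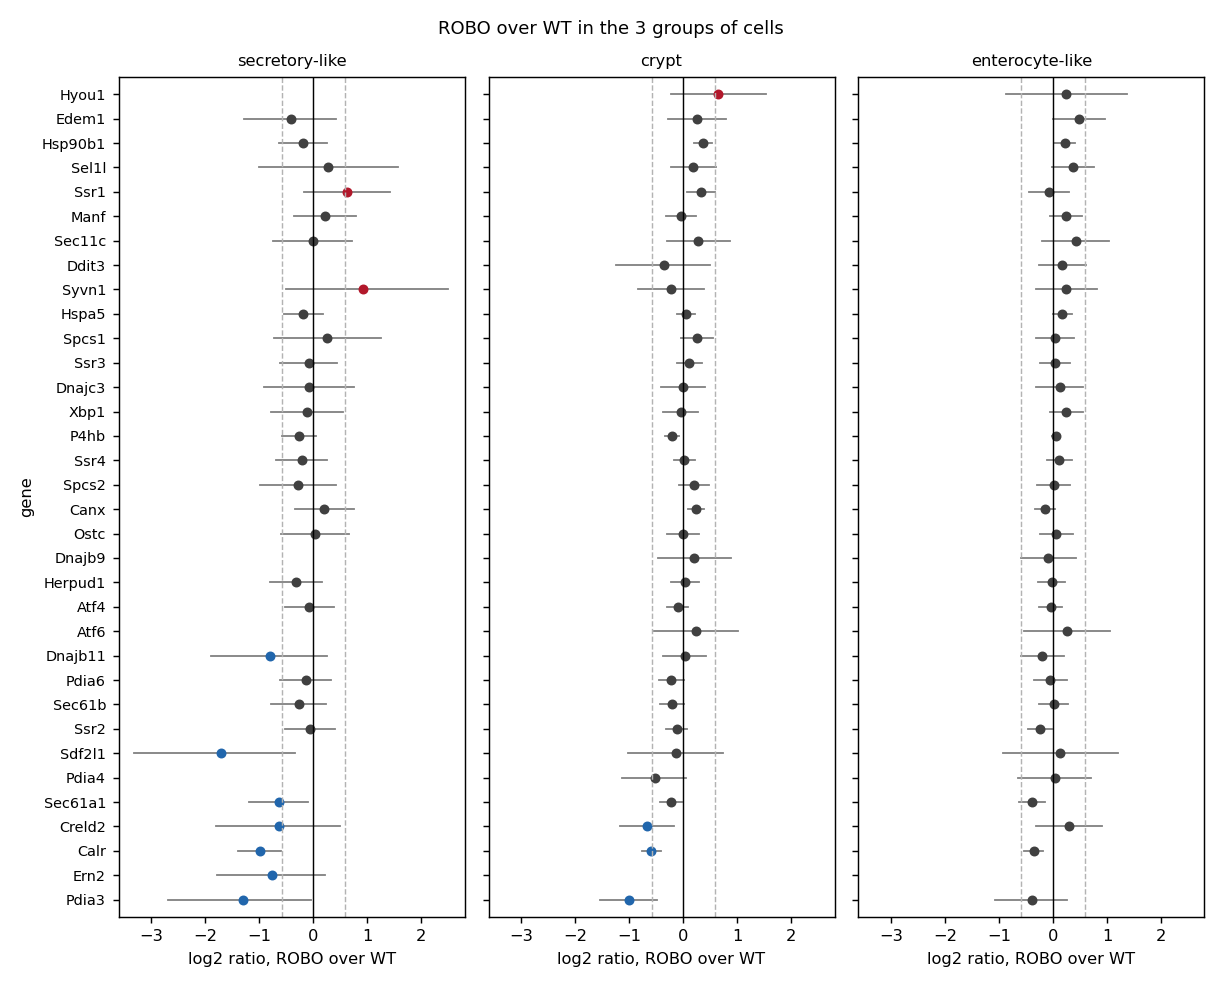
Log2 ratio of ROBO over WT for each ER gene in secretory-like, crypt-like and enterocyte-like cells (panels); points are ratios, bars are 95% counting intervals, dashed lines mark 1.5-fold, with red points past it upward and blue points downward, and genes under 20 UMIs in a group have no point. Calr lies left of 0 in all 3 panels (-0.99, -0.59 and -0.36), and no gene of the enterocyte-like panel passes 1.5-fold.

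Other features of the secretory-like cells differed between genotypes. Goblet markers made up 6.57% of WT and 8.43% of ROBO UMIs, of which a single ROBO cell held 2105 UMIs, and Paneth markers made up 3.81% and 2.16%. Immediate-early genes, which respond to tissue handling among other stimuli, stood at 81.7 per 10000 in WT and 72.9 in ROBO secretory-like cells, and at 77.3 in all secretory-like cells against 40.5 in crypt-like and 56.4 in enterocyte-like cells. In crypt-like cells, fibroblast markers stood at 2.8 per 10000 in WT and 8.29 in ROBO, and the ribosomal transcript Rn45s at 10.1 and 6.35. Median depth was 1410.5 UMIs in WT and 1869 in ROBO secretory-like cells. The part of these features in the ratios of the ER genes was not tested, except that without cells holding fibroblast markers the crypt-like ratio was -0.58 for Calr and -1.03 for Pdia3. Whether a difference between genotypes reflects more RNA per cell, the mice or the capture run cannot be told apart.

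Wider gene lists of the same route were read in the same way. Of 37 more folding and glycosylation genes, 30 were measured in secretory-like against enterocyte-like cells, 27 were higher, 10 at least 2-fold (33.3%, compared with 13.5% of all genes), and the median log2 ratio was 0.67. Agr2, a disulfide isomerase needed for mucin and also a goblet marker, was at 7.46, and Txndc5, another disulfide isomerase, at 4.27, while Ero1l, an ER oxidase, was at -2.68. Of 31 more stress and degradation genes, 26 were measured, 4 were at least 2-fold higher (15.4%, near the 13.5% of all genes) and 2 lower, with Creb3l1 at 5.45 and Creb3l3, which is also an enterocyte marker, at -4.78. Of 17 more translocation genes, 13 were measured and 11 were higher, 2 at least 2-fold (15.4%, again near all genes), with a median of 0.61. The 34 genes of ER to Golgi transport had a median of 0.05, with 5 at least 2-fold higher (14.7%, near all genes), such as the retrieval receptor Kdelr3 at 3.26, and 3 lower, such as Sar1b, the coat GTPase used for chylomicron export, at -2.40. In secretory-like cells of ROBO against WT, 20 of 23 measured genes of the folding list were lower, 8 by at least 1.5-fold (14.9% of all genes were), with a median of -0.47. Without the 3 largest secretory-like cells of each genotype, 13 of 21 were lower, 3 by at least 1.5-fold, with a median of -0.23. Of the 2060 genes measured in that setting, 959 were lower and 12.5% at least 1.5-fold lower, with a median of 0.04. The share of the folding list past 1.5-fold was then near that of all genes. The other lists had medians of -0.03 over 15 stress and degradation genes, -0.32 over 10 translocation genes and 0.09 over 30 ER to Golgi genes, with 1, 2 and 0 genes at least 1.5-fold lower. Of the folding list with all cells, Agr2 was at -0.76 (-0.91 to -0.62) and Txndc5 at -0.53 (-0.88 to -0.19).

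The ERSE or ERSE-II letters were set beside the ratios as a description. The 10 genes with an element, printed above, had a median log2 ratio of 0.90 in secretory-like over enterocyte-like cells, with 5 at least 2-fold higher, and the 16 measured genes whose window lacked both had 0.80, also with 5. On the goblet side against the Paneth side, the median was 1.16 over 9 measured genes with an element and 0.46 over 13 without. Calr, Pdia6, Creld2 and Dnajb11, whose stretches are shown, were among the genes past 2-fold on the goblet side, as was Sdf2l1, whose window held neither element. Herpud1, whose stretch is also shown, was not past 2-fold there, and its interval held 0. No window was held for Ern2 or Sec11c.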

How the data were processed

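Intestinal crypt cells of WT and ROBO mice were captured as droplets (Bio-Rad ddSEQ, SureCell 3′ kit), and the deposited values are raw UMI counts per gene and cell that the authors made in the BaseSpace workflow, with GRCm38 and mm10 named in the submitters' processing notes. The aligner version is not given in the sources used here. Each genotype's 8 samples were pooled in its matrix, and the authors deposited no map from cells to samples, at least in the files used here, so shared barcodes could not be counted either.

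The 36 genes, the wider lists and the comparisons were chosen with earlier results of these data known, and all 36 genes are named by rule. Cells were clustered in Seurat 5.3.0 (R 4.3.3) after S and G2/M scores (42 and 54 genes) were regressed out, on 2000 variable genes without the 36 (9 of which would have been among them), with 20 principal components at resolution 0.8, giving 13 clusters. A cluster was named for a list with at least 3 markers raised 1.5-fold in at least 10% of its cells, and left unnamed where another list led its top 10 genes. This naming rule and the split of secretory-like cells were set after the clusters were seen. Scrublet (scanpy 1.11.5) called 1 WT and 4 ROBO doublets, which were kept in the main values.

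UMIs were summed per cell group and given per 10000 (Python 3.11.15, scipy 1.17.1). Ratios carry conditional exact 95% intervals and levels exact Poisson intervals. A gene was measured in a comparison with at least 20 UMIs over both groups, and a group at 0 was set to 3 counts. Differences were counted at 2-fold between classes and 1.5-fold between genotypes. Shares of cells with a UMI were compared after thinning each cell to 912 UMIs and leaving out shallower cells. The ratio and interval code was tested on simulated data. Secretory-like cells held 246474 UMIs, crypt-like cells 2267616 and enterocyte-like cells 1884409, and the first of these limits the precision. Gene coordinates are from GENCODE M21 and promoter sequences from RefSeq, both on GRCm38. Alternatives changed the clustering, scaling, thresholds and cells kept.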

Additional observations from a re-analysis of the deposited data

How the results depend on the processing

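Of 189 alternative values of medians and counts, 166 stayed near the main value and 23 moved. A count was near if it lay within 1.5-fold of the main count. A median was near if it shifted by less than the half-width of the counting interval of a typical ER gene in that comparison. This half-width was 0.62 for ROBO over WT in secretory-like cells and 0.84 for goblet side over Paneth side, so the rule is loose there. No median larger than the half-width of its comparison changed sign, but the medians near 0 did. Across alternatives the crypt-like over enterocyte-like median ranged from -0.32 to 0.092. That of ROBO over WT ranged from -0.21 to 0.016 in secretory-like, -0.18 to 0.086 in crypt-like and -0.0098 to 0.073 in enterocyte-like cells. The median log2 ratio of the ER genes ranged from 0.78 to 1.06 for secretory-like over enterocyte-like cells, from 0.73 to 1.18 over crypt-like cells and from 0.59 to 1.31 for goblet side over Paneth side. The alternatives that left out the 3 largest secretory-like cells, the cluster led by immediate-early genes, the cluster led by Rn45s or cells with fibroblast markers, and the one that added the unnamed cluster, were chosen after seeing the data.

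At a clustering resolution of 0.4, no cluster was named transiently amplifying. A cluster of 324 WT and 284 ROBO cells with 21 transiently amplifying markers raised was named bottom enterocyte, from 6 raised markers of that list. Its cells were therefore counted as enterocyte-like. At this resolution, 8 rather than 13 genes were at least 2-fold higher over enterocyte-like and 20 rather than 13 over crypt-like cells. The crypt-like over enterocyte-like median was -0.32 rather than 0.03, and 2 rather than 0 genes passed 1.5-fold between genotypes in enterocyte-like cells. Among ratios whose counting interval excluded 0, the crypt-like over enterocyte-like ratio reversed there for Hsp90b1 (-0.69), Creld2 (-0.32), Pdia3 (-0.57), Pdia6 (-0.0025), Canx (-0.19), Sec61a1 (-0.20), Ssr1 (-0.034), Ssr3 (-0.45) and Ssr4 (-0.045), and the ROBO over WT crypt-like ratio for Hsp90b1 (-0.40) and Ssr1 (-0.15). Among ratios whose interval held 0, that of crypt-like over enterocyte-like cells also changed sign for Sdf2l1 (-1.02), Pdia4 (-0.22), Spcs1 (-0.15), Spcs2 (-0.30), Ssr2 (-0.29), Atf4 (-0.14) and Hyou1 (-0.031). Centred on the median of all genes, which moved by -0.29 over crypt-like cells and 0.34 for crypt-like over enterocyte-like cells, 22 genes were at least 2-fold higher over crypt-like cells, the crypt-like over enterocyte-like median was -0.31, and Hsp90b1 (-0.087), Sec61a1 (-0.16), Sec61b (-0.064), Ssr3 (-0.050) and Ssr4 (-0.18) reversed there. At a threshold of 1.5-fold, 24 genes were higher over enterocyte-like and 23 over crypt-like cells.

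Between genotypes, the 4 crypt-like genes past 1.5-fold became 1 with the ER genes kept in clustering, with 30 components, with doublets removed, at 2-fold or with the unnamed cluster added, and 2 without phase regression, with at least 500 genes per cell or without the Rn45s-led cluster. The 9 secretory-like genes became 3 at a minimum of 50 UMIs, 2 at 2-fold and 3 without the 3 largest cells of each genotype. The 0 enterocyte-like genes became 1 with at least 500 genes per cell, with each cell given the same weight, at a minimum of 1 UMI or without the immediate-early cluster. With each cell given the same weight, the secretory-like ratio of Sec61a1 reversed to 0.11. Calr ranged from -1.08 to -0.66 in secretory-like, -0.76 to -0.45 in crypt-like and -0.40 to -0.28 in enterocyte-like cells.

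Except where the alternative's own threshold sets a count, the cause was not tested. No paired analysis was possible because cell names carry a genotype and no sample, and for the same reason no sample was left out in turn. The 126 secretory-like cells limit every ratio that uses them, and the files allow no statement on the spread between mice.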
